A study of Mus musculus with 10 samples.

Results

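Cardiomyocytes, the contracting cells of heart muscle, send signals to the blood vessels around them, and 10 genes for such angiogenic ligands were examined here out of 23337 genes in the authors' deposited table. They were chosen by symbol: the vascular endothelial growth factor (VEGF) family ligands Vegfa, Vegfb, Vegfc and Pgf, the angiopoietins Angpt1 and Angpt2, apelin (Apln), and the angiogenic fibroblast growth factors (FGFs) Fgf1, Fgf2 and Fgf16. All 10 were listed with a fold change and an adjusted p-value. With dnMKL1, transcripts of Vegfa, Vegfb, Apln and Fgf16 fell, that of Angpt1 rose, and the other 5 did not pass the test.

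The study compared cardiomyocytes of wild-type mice that received the virus AAV9-cTNT-GFP or AAV9-cTNT-dnMKL1-GFP, with 5 biological replicates in each group. In both groups the mice were injected at postnatal day 1 with 5e+08 viral genomes per gram, and the cells were collected at postnatal day 14 by collagenase perfusion and fluorescence-activated sorting. In both viruses a cardiomyocyte promoter, cTNT (cardiac troponin T), drives the vector, so expression from the vector is directed to these cells. The gate of the sort is not given in the sources used here. MKL1, also called MRTF-A, is a coactivator of serum response factor (SRF), and dnMKL1 is its dominant-negative form.

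VEGF-A is the main signal for the growth of blood vessels, and in the heart much of it comes from cardiomyocytes and acts on receptors of neighbouring endothelial cells. VEGF-B and placental growth factor (Pgf) bind the receptor encoded by Flt1, whereas VEGF-C acts mostly on lymphatic vessels through the receptor encoded by Flt4. Angiopoietins bind the endothelial receptor TIE2, encoded by Tek, and apelin binds the receptor encoded by Aplnr. FGFs bind FGF receptors together with heparan sulphate, and FGF16 is a member of the FGF9 subfamily made in the heart.

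The table gives, per gene, a base mean (the average over all libraries of counts divided by size factors, in normalized counts), a log2 fold change with its standard error (SE) and a Wald p-value. It gives no values per library, so replicate error enters only through the SE, and whether 1 library decides a value was not tested. A gene was called where its Benjamini-Hochberg adjusted p-value was under 0.05. The mean of each group implied by these values (the implied mean) was derived here, with both groups given equal weight. Estimated totals ran from 8803028 to 17228619 counts per library. Positive fold changes were read as higher in dnMKL1, because Mkl1 itself had a log2 fold change of 9.80 (SE 0.15) in the authors' deposited table, vector reads included. The summed implied means were lower in the dnMKL1 group, and scaling both groups to the same total (total-count scaling) adds 0.29 to every log2 fold change. Among all 14056 genes tested, total-count scaling turns the authors' 2340 higher and 2452 lower genes into 5685 higher and 927 lower.

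The labelled cell type was checked against markers. The 10 cardiomyocyte markers were at a median of 45678 normalized counts per kb of the longest transcript, computed from the authors' deposited table. Of the 10, 8 were lower in dnMKL1 libraries, where 17.4% of all genes tested were, and Myh6 had -0.87 (SE 0.11) there. The summed implied mean of the 10 went from 1.88e+06 normalized counts with GFP to 1.01e+06 with dnMKL1, part of the lower total given above. The 12 endothelial markers had a median of 114 normalized counts per kb, so transcripts of vessel cells were detected in the sorted material. In bulk samples, fewer cells of a type and less RNA per cell cannot be told apart.

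Per kb of the longest transcript, the levels of the ligands spread widely, with no single break. Fgf1 was at 1389 normalized counts per kb, Vegfb at 1377 and Vegfa at 936 over both groups, where the highest of the 12 endothelial markers was at 212. Fgf16 followed with 217 normalized counts per kb, then Angpt1 with 210 and Apln with 45.6. The remaining 4 ligands were lower, with 16.7 normalized counts per kb for Vegfc, 3.98 for Angpt2, 2.20 for Pgf and 0.741 for Fgf2. These levels come from base means without an error, so the order of neighbours, such as Fgf1 and Vegfb or Fgf16 and Angpt1, was not tested. Dividing by the median transcript length instead moved Fgf1 to 5848 normalized counts per kb and Vegfa to 3696, above the 1523 of Vegfb. It put Vegfc at 73.6, above Apln, and Fgf2 at 8.76, above Angpt2 and Pgf, and Angpt1 at 309.5, above Fgf16.

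**Figure D1:**
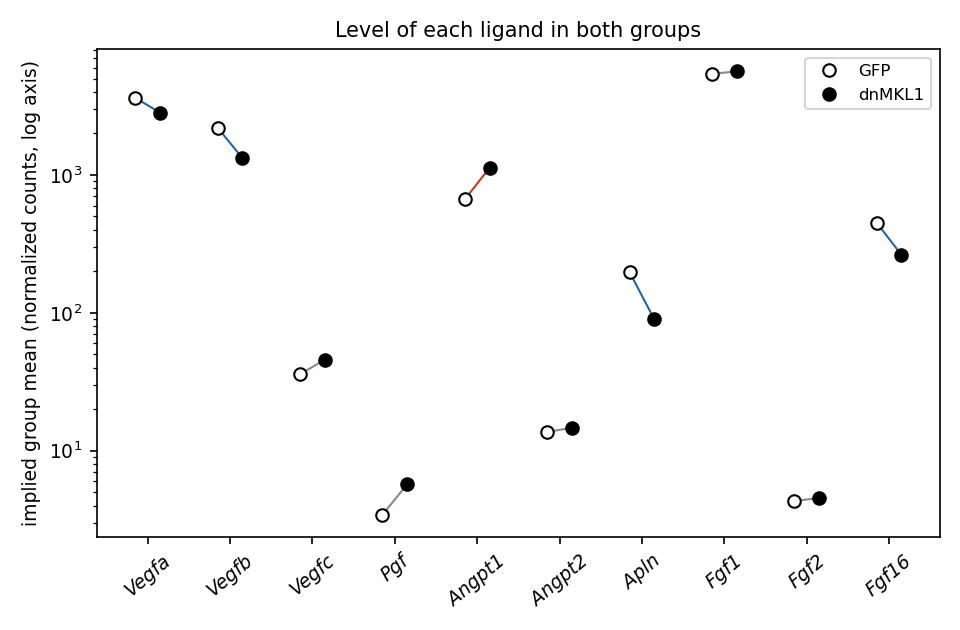
Implied mean of each ligand in the GFP group (open circles) and the dnMKL1 group (filled circles), in normalized counts on a log axis, with line colour for the call (blue lower, red higher, grey not called). The levels run from 3.44 for Pgf to 5641 for Fgf1.

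The 2 abundant VEGF family ligands fell with dnMKL1. Vegfa (chr17:46016993-46032369, minus strand, GRCm38) stood at an implied mean of 3626 normalized counts with GFP and 2835 with dnMKL1. The authors' deposited table listed a log2 fold change of -0.36 (SE 0.074, adjusted p = 1.7e-05), a level 0.782 times that of the GFP group with a 95% interval of 0.707 to 0.865. This call depended on the scaling: under total-count scaling the log2 fold change was -0.067 (adjusted p = 0.49). The table counts the gene as a whole, and its 13 annotated transcripts, which include the splice forms that differ in heparin binding, are not separated.

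Vegfb (chr19:6982473-6987651, minus strand, GRCm38), a ligand tied to fatty acid uptake and coronary vessels of the heart, fell further. Its implied mean went from 2202 to 1326 normalized counts. The authors' deposited table gave a log2 fold change of -0.73 (SE 0.12, adjusted p = 1.2e-08), a fall of 39.8%, and total-count scaling left -0.44 (adjusted p = 7.0e-04). Of the 10 ligands, Vegfb had the smallest p-value.

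The 2 scarce family members did not pass the test. Vegfc (chr8:54077606-54187096, plus strand) had implied means of 35.8 and 45.8 normalized counts in the GFP and dnMKL1 groups. Its log2 fold change, from the authors' deposited table, was 0.35 (SE 0.30, adjusted p = 0.41), with a 95% interval of -0.24 to 0.95. Pgf (chr12:85166635-85177790, minus strand), at 3.44 and 5.70 normalized counts, had 0.73 (SE 0.61, adjusted p = 0.39) there. Its point estimate resembles the size of the change in Vegfb, but about 45.7 normalized counts in all libraries together carry it. At the SE of Pgf a change smaller than 2.72-fold would not have been called, and at that of Vegfc one smaller than 1.65-fold.

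**Figure D2:**
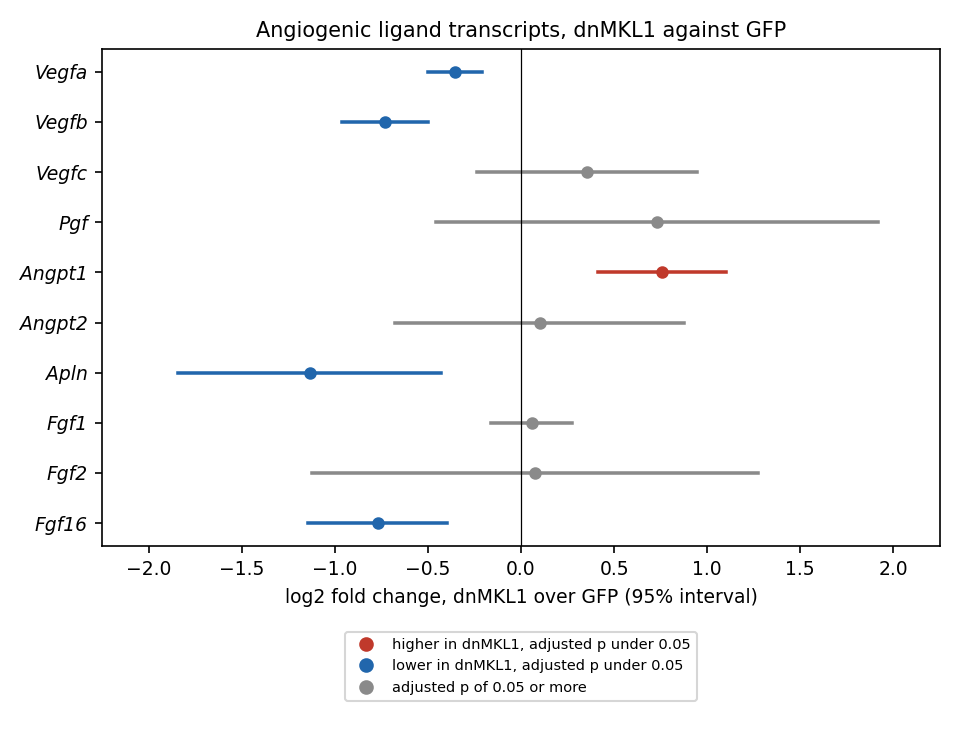
Log2 fold change of each ligand, dnMKL1 over GFP, with 95% intervals from the deposited SE. Vegfa, Vegfb, Apln and Fgf16 lie left of 0 (blue), Angpt1 lies right of 0 (red), and the intervals of the other 5 (grey) cross 0.

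Promoters are shown for the ligands that fell and have an entry in the RefSeq table, Vegfa, Vegfb and Apln, since their transcripts moved in 1 direction. Each line holds the 250 bases before the annotated start, from GRCm38.p6, 5′ to 3′ on the gene's strand (minus for all 3). They lie at chr17:46032378-46032627 for Vegfa, chr19:6987652-6987901 for Vegfb and chrX:48034854-48035103 for Apln. Capitals mark matches on either strand to GGGCGG, the GC box known as a site of SP1; the other strand reads CCGCCC.
Vegfa: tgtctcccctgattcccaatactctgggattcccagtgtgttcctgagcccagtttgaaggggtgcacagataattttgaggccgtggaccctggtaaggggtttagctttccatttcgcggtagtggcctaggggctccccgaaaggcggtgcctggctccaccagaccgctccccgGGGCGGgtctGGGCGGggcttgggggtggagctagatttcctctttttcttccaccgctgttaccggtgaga
Vegfb: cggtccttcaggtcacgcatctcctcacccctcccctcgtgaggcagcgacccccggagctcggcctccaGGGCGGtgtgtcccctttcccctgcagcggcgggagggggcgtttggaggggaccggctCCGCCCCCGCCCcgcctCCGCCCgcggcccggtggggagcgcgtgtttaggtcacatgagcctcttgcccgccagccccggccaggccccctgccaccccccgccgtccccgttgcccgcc
Apln: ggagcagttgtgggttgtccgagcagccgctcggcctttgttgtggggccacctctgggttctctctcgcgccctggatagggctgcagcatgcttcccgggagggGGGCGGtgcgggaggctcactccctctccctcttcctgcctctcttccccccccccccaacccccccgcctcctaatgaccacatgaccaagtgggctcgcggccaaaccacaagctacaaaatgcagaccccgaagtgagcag
The GC box stood 2 times in the Vegfa sequence, 4 times in that of Vegfb and 1 time in that of Apln. Of 32851 mouse promoters of the same table, searched from 250 bases before to 50 after the start, 35.7% held it. Its matches in Vegfa lay at bases -72 to -67 and -62 to -57 from the start. The CArG box, the site SRF binds, was in 1.63% of all promoters and matched none of these 3 windows. ACGTG (core of the hypoxia response element, in 19.6% of promoters) and AAGGTCA (a site of oestrogen-related receptors, in 4.72%) matched none of them either, nor did CATTCC (a site of TEAD factors, in 14.7%). The 5 motifs were searched on both strands, overlapping matches included. A downstream Vegfa start at another entry of the table did hold ACGTG once, at bases -211 to -207. A missing match says only that these letters are not in the window. Promoter entries also exist for Vegfc, Pgf and Fgf2, so 6 of the 10 ligands were searched. Angpt1, Angpt2, Fgf1 and Fgf16 were not. The GC box stood 2 times in the window of Vegfc, 2 times in the first of Pgf and 1 time in that of Fgf2. These ligands were not called, but their SEs were large. Changes below 1.65-fold for Vegfc, 2.72-fold for Pgf and 2.75-fold for Fgf2 would not have been called. Every searched ligand held the box, so it cannot be compared between ligands that fell and ligands that did not.

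Angpt1 was the only ligand of the 10 that rose under the authors' scaling. It encodes the TIE2 agonist that stabilizes vessels and lies at chr15:42424723-42676977 on the minus strand. Its implied mean was 666 normalized counts with GFP and 1126 with dnMKL1. The authors' deposited table gave a log2 fold change of 0.76 (SE 0.18, adjusted p = 1.3e-04), a 1.69-fold rise with a 95% interval of 1.33 to 2.15, and total-count scaling gave 1.05. An antisense gene, Gm17473, overlaps an exon of Angpt1 by up to 653 bases. Whether the counting used strand is not given in the sources used here, so reads of the 2 genes within the overlap cannot be told apart. The longest transcript of Angpt1 has 4260 bases.

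Pericytes, smooth muscle and fibroblasts also express Angpt1, so markers of these cells are given beside it. Of 9 mural markers 3 were higher and 1 was lower, where 16.6% and 17.4% of all genes tested were. The summed implied mean of the 9 was 18254 normalized counts with GFP and 15947 with dnMKL1. Acta2 alone carried that fall, and the median log2 fold change of all 9 was 0.30. The other 8, a choice made after seeing the data, summed to 7800 with GFP and 10949 with dnMKL1, of which Abcc9 made up 6332 and 7773. Acta2 stood at 3797 normalized counts per kb and Abcc9 at 940, where the median of the 9 was 59.2. Which cells the transcripts of these 2 genes came from was not tested. Of the 9 markers, 5 were higher and 1 lower under total-count scaling, where 5685 and 927 of 14056 genes were. Log2 fold changes from the authors' deposited table were 2.01 (SE 0.18) for Cspg4, -1.06 (SE 0.25) for Acta2 and 0.72 (SE 0.18) for Tagln. Of the 5 not called there, Rgs5 had 0.014 (SE 0.31), Kcnj8 0.029 (SE 0.30), Pdgfrb 0.18 (SE 0.24) and Notch3 0.45 (SE 0.20). Abcc9, which cardiomyocytes also express, had 0.30 (SE 0.15) and passed the test only under total-count scaling (0.58, adjusted p = 6.5e-04). Of 9 fibroblast markers 3 were higher and 0 lower, where 16.6% and 17.4% of all genes tested were, and total-count scaling made that 6 higher. The summed implied mean of these 9 went from 3561 to 4939 normalized counts, and Col1a2 had 0.64 (SE 0.14) in the authors' deposited table. The 6 not called there ran from 0.063 (SE 0.25) for Pdgfra to 0.79 (SE 0.52) for Tcf21. None of these 18 markers was listed at 0. Their part in the rise of Angpt1 was not tested.

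Angpt2 (chr8:18690263-18741562, minus strand), a context-dependent antagonist of TIE2 made mainly by endothelial cells, was scarce. Its implied means were 13.7 and 14.7 normalized counts in the GFP and dnMKL1 groups. The authors' deposited table listed a log2 fold change of 0.10 (SE 0.40, adjusted p = 0.89), with a 95% interval of -0.68 to 0.88. A change of less than 1.93-fold was not detectable at this SE.

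Apelin showed the largest fall among the 10 ligands. Apln (chrX:48025146-48034853, minus strand) encodes a peptide that acts on vessels and on the contraction of heart muscle. Its implied mean was 197 normalized counts with GFP and 89.7 with dnMKL1. The authors' deposited table gave a log2 fold change of -1.14 (SE 0.36, adjusted p = 0.0068), a fall of 54.5% with a wide 95% interval on the log2 scale of -1.84 to -0.43. Under total-count scaling it was -0.85 (adjusted p = 0.041). Endothelial tip cells express apelin too, and the sum of the 12 endothelial markers was 4396 normalized counts with GFP and 4485 with dnMKL1. Of these markers, 0 of 12 were called and 0 had an unadjusted p-value under 0.05 in the authors' Wald test. At their SEs, the smallest log2 change that would have been called ran from 0.585 for Flt1 to 1.25 for Fabp4. The part of endothelial cells in the fall of Apln was not tested. Apln had a larger SE than Fgf16 or Angpt1, the ligands nearest to it in level among those called.

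The FGFs differed among themselves. Fgf16 (chrX:105764279-105774939, plus strand), made by cardiomyocytes after birth, went from 450 to 264 normalized counts. The authors' deposited table gave a log2 fold change of -0.77 (SE 0.19, adjusted p = 3.6e-04), a fall of 41.4%, and total-count scaling gave -0.48 (adjusted p = 0.027). Fgf9, of the same subfamily, also fell, with -0.64 (SE 0.17, adjusted p = 0.0012) in the authors' deposited table. That call ended under total-count scaling, at -0.36 (adjusted p = 0.081).

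Fgf1 (chr18:38838673-38929472, minus strand) encodes an FGF without a signal peptide and was the ligand with the largest base mean. Its implied means of 5423 and 5641 normalized counts gave a log2 fold change of 0.057 (SE 0.11, adjusted p = 0.76) in the authors' deposited table. The 95% interval of the fold, from 0.895 to 1.21, leaves room only for small changes on the authors' scale. Under total-count scaling Fgf1 was called higher, at 0.35 (adjusted p = 0.0053). S100a13, which takes part in the release of FGF1 from cells, rose, with 0.58 (SE 0.13, adjusted p = 7.9e-05) in the authors' deposited table.

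Fgf2 (chr3:37348346-37410108, plus strand), the other FGF released without a signal peptide, was the scarcest ligand per kb. Its implied means were 4.31 and 4.54 normalized counts, and the authors' deposited table listed a log2 fold change of 0.074 (SE 0.61, adjusted p = 0.95). A change below 2.75-fold would not have been called. Exons of Nudt6 overlap those of Fgf2 on the opposite strand by up to 585 bases. Nudt6, named for this overlap after its values were seen, fell by 1.20 (SE 0.15) on the log2 scale in the authors' deposited table, so counting without strand could mix the 2 genes.

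Of the 10 ligands, 5 were called, against 34.1% of 14056 genes tested. By direction, 4 were lower, where 17.4% of all genes were, and 1 was higher, where 16.6% were. Under total-count scaling 3 were lower and 2 higher, where 927 and 5685 of the 14056 genes were. All 5 called ligands were among the 6 whose base mean reached 100, a limit chosen after seeing the data. Of 8641 genes that abundant 43.4% were called, 18.4% higher and 24.9% lower. The 4 scarcer ligands were all not called, where 19.3% of 5415 genes under that base mean were called. The median log2 fold change of the 10 ligands was 0.066 beside 0.021 for all genes tested. Over the 6 abundant ligands it was -0.54, and over all tested genes of that abundance -0.029.

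**Figure D3:**
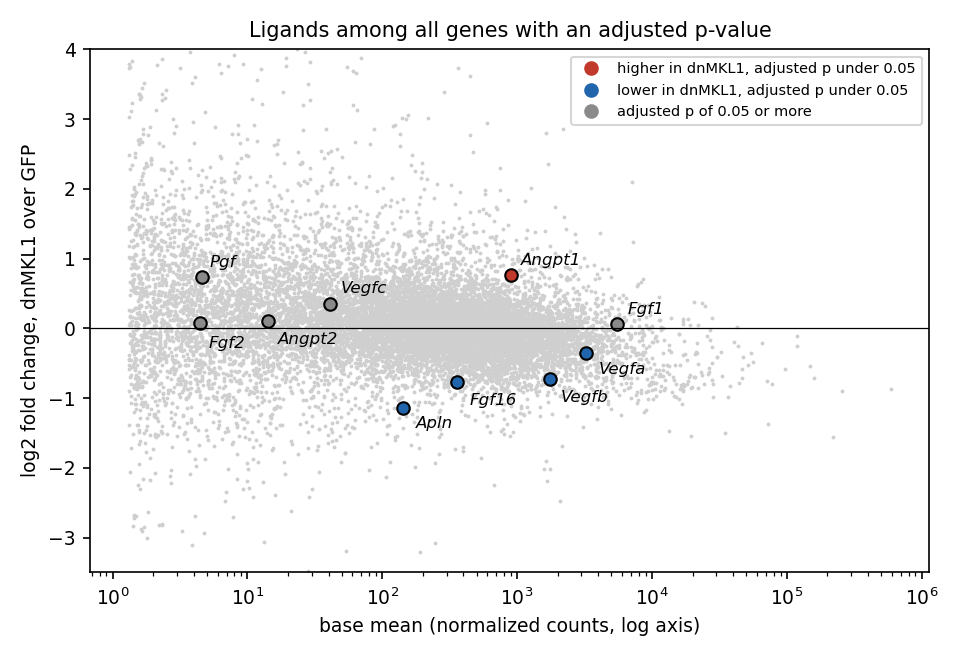
Log2 fold change against base mean (log axis) for 14056 genes with an adjusted p-value (grey) and the 10 ligands (coloured by call); the vertical axis runs from -3.5 to 4 and leaves out 38 genes beyond it. Called ligands have base means from 143 for Apln to 3230 for Vegfa, and Fgf1, with the largest base mean of the 10, lies near 0.

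Of 13 receptor and co-receptor genes 12 had an adjusted p-value, of which 3 were higher and 0 lower, beside 16.6% and 17.4% of all genes tested. All 3 were FGF receptors; a difference between receptor families was not tested. Fgfr1, the main FGF receptor of cardiomyocytes, went from 162 to 391 normalized counts, with a log2 fold change of 1.27 (SE 0.17, adjusted p = 1.1e-11) in the authors' deposited table. Fgfr2 and Fgfr3 were scarcer, at base means of 15.4 and 45.2, and had 1.09 (SE 0.38) and 0.97 (SE 0.30) in the authors' deposited table. Fgfrl1, an FGF receptor without a kinase domain, had -0.054 (SE 0.19), and Fgfr4, at a base mean of 0.540, had no adjusted p-value. The rise of Fgfr1 to Fgfr3 thus stood beside a fall of Fgf16, while Fgf1 and Fgf2 did not pass the test.

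Receptors for VEGFs, angiopoietins and apelin did not pass the test. In the authors' deposited table the log2 fold changes were 0.10 (SE 0.29) for Kdr, the main receptor of VEGF-A, and 0.14 (SE 0.25) for Flt1, which also binds VEGF-B and Pgf. Flt4 had 0.27 (SE 0.27), Tek -0.013 (SE 0.27) and its partner Tie1 0.075 (SE 0.29). Aplnr was least precise, with -0.042 and an SE of 0.57 in the authors' deposited table, so its 95% interval ran from -1.16 to 1.07. Of the neuropilins, co-receptors of VEGFs, Nrp2 had 0.022 (SE 0.31) and Nrp1 0.23 (SE 0.10, adjusted p = 0.067), which total-count scaling raised to 0.51 (adjusted p = 2.2e-06). Kdr, Flt1 and Tie1 are themselves endothelial markers, a list with 0 of 12 called, as given above beside Apln.

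**Figure D4:**
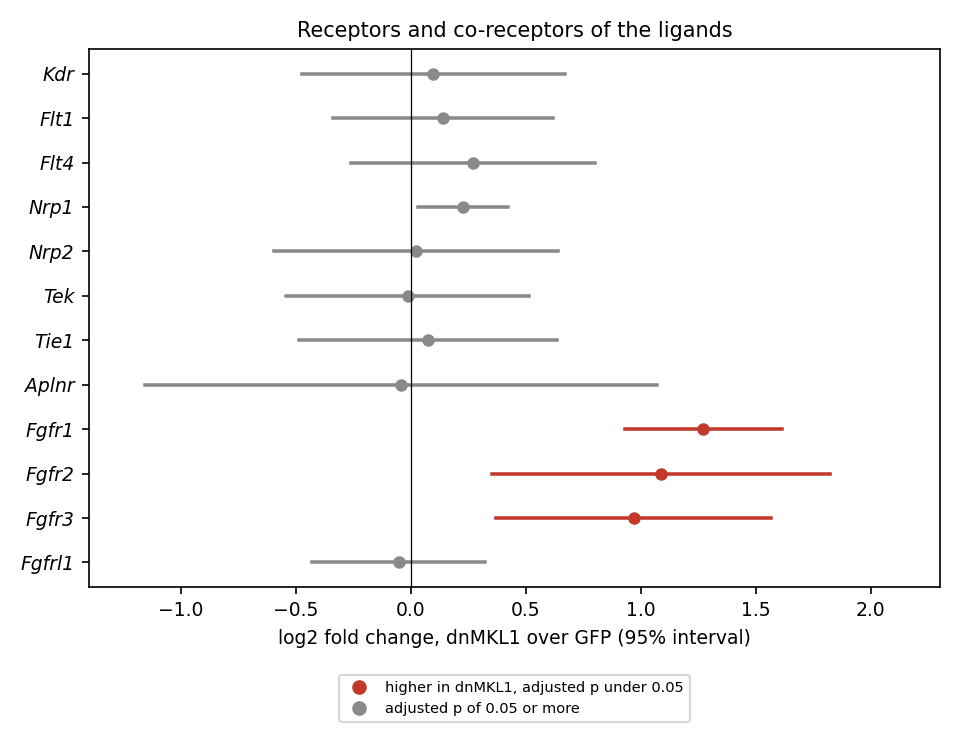
Log2 fold change of the 12 receptors and co-receptors with an adjusted p-value, dnMKL1 over GFP, with 95% intervals from the deposited SE. Fgfr1, Fgfr2 and Fgfr3 lie right of 0 (red), and the other 9 (grey) were not called.

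Of 18 genes with an adjusted p-value that hold FGFs and VEGFs at the cell surface or process them, 7 were higher and 2 lower, and 12 and 1 under total-count scaling. Of all 14056 genes tested 16.6% were higher and 17.4% lower, and 5685 and 927 genes were under total-count scaling. The heparan sulphate carrier Sdc4 had 1.19 (SE 0.14, adjusted p = 1.2e-16) and Sdc2 0.78 (SE 0.11, adjusted p = 7.8e-12) in the authors' deposited table. Of 4 syndecans 3 were higher. Gpc1, the most abundant gene of the list with a base mean of 6760, missed the threshold at 0.35 (SE 0.15, adjusted p = 0.055) in the authors' deposited table. Adamts3, the protease that matures VEGF-C, fell, with -0.95 (SE 0.14, adjusted p = 1.2e-09) there. The convertase gene Pcsk7 fell as well, by 0.24 (SE 0.075) on the log2 scale in the authors' deposited table, but total-count scaling reversed its sign to 0.045 (adjusted p = 0.66).

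Among other ligands of the same families, 9 of 22 had an adjusted p-value and 5 were listed at 0. Fgf9 was the only 1 called lower and Fgf21, a stress-induced hormone, the only 1 called higher. The share called among the 9, 22.2%, was below the 34.1% of all genes tested, of which 17.4% were lower and 16.6% higher. Fgf21 had a log2 fold change of 3.34 (SE 1.29, adjusted p = 0.030) in the authors' deposited table, at a base mean of 1.60, and both implied means were under 3 normalized counts. The most abundant was Fgf13, an FGF homologue that stays inside the cell and binds sodium channels, which did not pass the test at -0.057 (SE 0.058) in the authors' deposited table. Under total-count scaling Fgf13 was 0.23 and called higher.

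Other secreted angiogenic factors had 4 higher and 2 lower of 18 with an adjusted p-value, and 6 and 0 under total-count scaling. The share called, 33.3%, was near the 34.1% of all genes tested. Total-count scaling made 5685 of those 14056 genes higher and 927 lower. Hbegf, an EGF receptor ligand, had 0.58 (SE 0.14), Sema3c 0.54 (SE 0.14) and Pdgfa 0.35 (SE 0.11) in the authors' deposited table. Lower were Edn1, the vasoconstrictor endothelin 1, with -1.15 (SE 0.45, adjusted p = 0.033), and Pdgfc with -0.80 (SE 0.32, adjusted p = 0.042) in the authors' deposited table, and neither call held under total-count scaling. Ccn1, listed as Cyr61 and the most abundant of them, did not pass the test at 0.63 (SE 0.46).

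In a list of secreted inhibitors of angiogenesis, 7 of 13 genes were higher and 1 lower, beside 16.6% and 17.4% of all genes tested. Under total-count scaling 10 were higher and 1 lower, where 5685 and 927 of 14056 genes were. On the authors' scale the median log2 fold change of the 13 was 0.78, where that of all genes tested was 0.021. Sema3a, a repellent that acts through neuropilin 1, went from 97.4 to 276 normalized counts, 2.84-fold higher (SE 0.21 on the log2 scale, adjusted p = 2.1e-11) in the authors' deposited table. Sparc, a matrix protein that binds VEGF and PDGF, had 1.23 (SE 0.20, adjusted p = 3.3e-08) and Timp3, which blocks VEGF binding to its receptor, 0.95 (SE 0.17, adjusted p = 2.3e-07) there. Vash2 was the gene called lower, with -1.80 (SE 0.31, adjusted p = 1.4e-07) in the authors' deposited table. It was listed as a vasohibin but, unlike Vash1, is known mainly to promote angiogenesis. The other 12 genes, a choice made after seeing the data, had 7 higher and 0 lower. Fibroblasts and mural cells express Sparc and Timp3 too. As given above, 3 of 9 fibroblast markers were higher; their part in these rises was not tested.

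Hypoxia-inducible factors (HIFs) drive Vegfa and other ligands when oxygen is low, and their genes moved in opposite directions. Of 11 HIF pathway regulators 4 were higher and 4 lower, where 34.1% of all genes tested were called in either direction. Under total-count scaling 5 were higher and 1 lower, where 5685 and 927 of 14056 genes were. Hif1a went from 3014 to 5452 normalized counts, with 0.86 (SE 0.13, adjusted p = 1.6e-09) in the authors' deposited table, while Epas1, which encodes HIF-2α, fell with -0.54 (SE 0.11, adjusted p = 3.8e-06). Cited2, a competitor of HIFs for their coactivator, rose with 1.32 (SE 0.19), and Arnt2, a partner of HIFs, rose with 1.46 (SE 0.46). The oxygen sensors Egln1 and Hif1an fell with -0.54 (SE 0.16) and -0.44 (SE 0.12) in the authors' deposited table, and both calls ended under total-count scaling.

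Of 20 hypoxia-inducible targets other than the ligands, 6 were higher and 4 lower, against the same 34.1% of all genes on the authors' scale. Under total-count scaling 12 were higher and 0 lower, where 5685 and 927 of 14056 genes were. The glucose transporter gene Slc2a1 had 1.43 (SE 0.19, adjusted p = 1.4e-12), the collagen-modifying enzyme gene P4ha1 0.57 (SE 0.11) and the stress gene Ddit4 0.96 (SE 0.22) in the authors' deposited table. Higd1a, a mitochondrial protein gene, fell with -0.36 (SE 0.089), P4ha2 with -0.34 (SE 0.11) and Egln3 with -0.49 (SE 0.17) there, and none of these 3 calls held under total-count scaling. Ldha, the most abundant of the list, did not pass the test at 0.15 (SE 0.069, adjusted p = 0.080).

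Among 16 other transcription factors and coactivators known to act on Vegfa or other ligands, 1 was higher and 5 lower, and 9 and 3 under total-count scaling. The share called on the authors' scale, 37.5%, was near that of all genes. Total-count scaling made 5685 of all 14056 genes higher and 927 lower. The coactivator gene Ppargc1b went from 1182 to 413 normalized counts, with -1.52 (SE 0.17, adjusted p = 9.9e-17) in the authors' deposited table. Its partner Esrra, an oestrogen-related receptor known to drive Vegfa with PGC-1 coactivators, fell with -0.69 (SE 0.095, adjusted p = 1.5e-11), and Srf fell with -0.80 (SE 0.10, adjusted p = 2.6e-13) there. Sp1, the factor of the GC box marked in the promoters, was the gene called higher, with 0.49 (SE 0.11, adjusted p = 8.2e-05) in the authors' deposited table. Gata4, the most abundant of them, did not pass the test at 0.10 (SE 0.072). The part of these factors, or of the HIFs, in the changes of Vegfa and the other ligands was not tested.

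**Figure D5:**
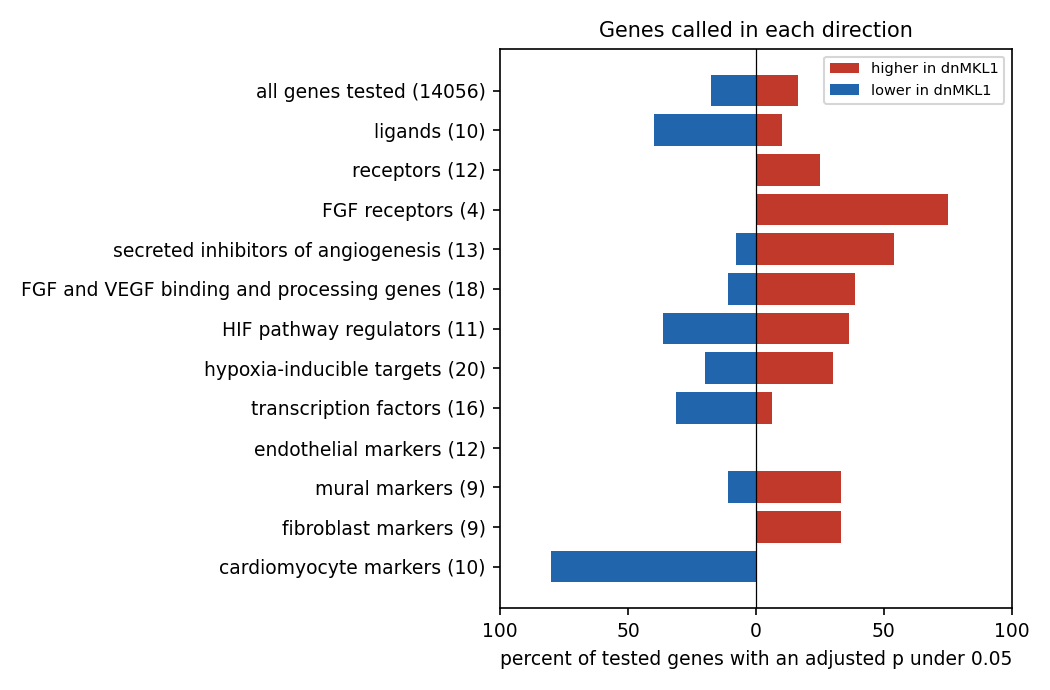
Percent of genes with an adjusted p-value that were called higher (red, right) or lower (blue, left) in dnMKL1, for all genes tested, the ligands, their pathway lists and cell type markers (number of genes in parentheses). Of the 10 ligands 4 were lower and 1 higher, of 4 FGF receptors 3 were higher, and of 12 endothelial markers 0 were called.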

How the data were processed

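RNA sequencing libraries were made from sorted cardiomyocytes with a SMART-Seq kit and Nextera XT, per the labels' protocols, from 10 ng of RNA and 8 PCR cycles. Per the submitters' processing notes, the tools were CASAVA 1.8, STAR 2.5.3a and featureCounts of Subread 1.5.2, with build mm10. Annotation and strand setting are not given in the sources used here.

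The deposited table is the authors' own comparison, and per the file headers its columns are those DESeq2 writes. Its deposited base mean is a signal: counts over size factors, averaged. On the log2 scale the authors give the fold change and SE. The Wald statistic the authors deposited, a score, is their ratio within 1.14e-05. The deposited p-value was adjusted by the authors over 14056 genes, the lowest with a base mean of 1.31; recomputed Benjamini-Hochberg values differed by at most 1.44e-07. The headers do not state the direction, which was read from Mkl1.

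Computed here (Python 3.11.15, scipy 1.17.1, pandas 2.3.3) were implied group means, 95% normal intervals from the SE, total-count scaling, median-centring and the size factors, from genes with 1 read in 1 library; functions were tested on simulated data. Estimated totals are reads, not molecules, since no molecular identifiers are named. Transcript lengths, exon overlaps and positions came from GENCODE M21 (GRCm38), promoters from RefSeq (GRCm38.p6). The ligands and lists were chosen with earlier results of these data known. Named were all ligands and receptors, up to 3 called genes per direction and the most abundant gene of each other list, and for markers the 3 most abundant and up to 3 called genes. Further mural and fibroblast markers that were not called were named after their values were seen. Older symbols were matched through RefSeq. A result of 1 list is not reported here. Thresholds, scaling, centring and filters were varied.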

Additional observations from a re-analysis of the deposited data

How the results depend on the processing

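No paired analysis was possible because the table holds no values per library; the planned count tests, the fits without each replicate and the replicate block were therefore not run. The 5 calls among 10 ligands stayed at 5 under 7 of 8 alternatives and became 4 with an absolute log2 fold change of at least 0.5, which leaves out Vegfa. Total-count scaling lost Vegfa and added Fgf1.

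The median log2 fold change of the ligands, 0.066, moved to 0.35 under total-count scaling, by the shift itself. Requiring a base mean of 10 gave -0.15, without Pgf and Fgf2, and requiring 100, a limit chosen after seeing the data, gave -0.54, without Vegfc and Angpt2 too; all 4 have fold changes above 0. Medians of other lists also changed sign: other family ligands to -0.057 and -0.35 under those filters, angiopoietin-like genes to 0.15 under the stricter filter, and, under total-count scaling, angiopoietin-like genes to 0.14, HIF regulators to 0.17 and macrophage markers to 0.13. Fgf13 turned to 0.23 and Pcsk7 to 0.045 under that scaling. Of 84 genes tested that were named by the rule above, it made 10 weaker and 7 stronger, while median-centring changed no call of the 84. For Pgf, Fgf2, Angpt2 and Vegfc the SE sets the smallest fold that would have been called, from 1.65 to 2.75.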

Other observations

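Of the angiopoietin-like genes, which resemble angiopoietins but do not bind TIE2, Angptl2 was the most abundant. It rose with a log2 fold change of 0.51 (SE 0.11, adjusted p = 6.0e-05) in the authors' deposited table. Angptl1 was scarce, with a base mean of 14.8, and fell with -1.25 (SE 0.34, adjusted p = 0.0012) there.

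The remaining marker lists stand beside the 34.1% of all genes tested that were called in either direction. Lymphatic endothelial genes had 1 of 4 called. That gene was Prox1, which cardiomyocytes also express, with -0.41 (SE 0.11) in the authors' deposited table and no call under total-count scaling, while the defining Lyve1 had a base mean of 5.91. Macrophage markers had 1 of 8 called, Cd68, with 1.03 (SE 0.39), and summed to 153 normalized counts with GFP and 135 with dnMKL1. Epicardial markers had 0 of 5 called, with 0 at an unadjusted p-value under 0.05 in the authors' Wald test.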
